A study of Mus musculus with 12 samples.

Results

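The genes described here encode 10 RNA-binding and cap-binding proteins of maternal messenger RNA storage, silencing and translation in the mouse oocyte: Cpeb1, Eif4e1b, Eif4enif1, Ybx2, Ddx6, Lsm14b, Dazl, Zar1, Zar1l and Pabpc1l. Storage genes is used below as a name for the list, not for the role of each gene. They were taken by symbol from a table of 24062 genes, and all 10 passed the filter on low counts that left 9935 genes for testing. RNA was sequenced from 12 pools of 4 oocytes each. The 6 high-fat diet (HFD) pools came from females fed a modified high-fat, high-calorie feed for 9 weeks, and the 6 control diet (CD) pools from females fed the control feed for as long. Females of both diets ate the control feed while they were mated with vasectomized males, and unfertilised oocytes were collected at 0.5 days after mating. The labels name both feeds by 1 product code, so what the control feed held is uncertain, and groups follow the labels' diet names. The labels give 6 females per diet but no strain or age, and do not say which female gave which pool, so p-values measure the spread between pools, part of which may be technical.

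A growing oocyte makes more mRNA than it translates and keeps the surplus with short poly(A) tails until meiosis resumes. CPEB1 binds the cytoplasmic polyadenylation element (CPE), a U-rich motif in the 3′ untranslated region, and with cap-binding partners keeps the bound message dormant. During maturation CPEB1 is phosphorylated, tails are lengthened and translation starts, while DAZL and other regulators act on overlapping targets. ZAR1, YBX2, DDX6, LSM14B and the eIF4E transporter 4E-T (the product of Eif4enif1) are found together in stored ribonucleoprotein particles, which in mouse oocytes cluster around mitochondria.

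The 3′ ends of the storage genes' own messages are shown because the poly(A) signal and the CPE are the letters on which this machinery works. In the longest basic protein-coding transcript of each gene (GENCODE M21, mm10), the last 100 bases were searched on the sense strand for the CPE, spelled TTTTAT or TTTTAAT, and for the poly(A) signal, spelled AATAAA or ATTAAA. Of the 9 genes with a 3′ untranslated region that long, 1 held a CPE there and 8 held a poly(A) signal. Over 19752 genes with such a window the shares were 17.8% and 78.6%. The 3′ region annotated for Zar1l is only 17 bases, too short to search. The lines below give 30 bases each, 5′ to 3′, for the 4 genes whose pool-to-pool pattern or level stands out below and for Ybx2, with the motif in capitals. The Ybx2 window holds the CPE, and the others the poly(A) signal.
Zar1: aagcctgtgAATAAAaggtattgcaaacaa
Lsm14b: aactaAATAAAcattggactcttcaagtgc
Eif4e1b: ggccctttctgtatctaAATAAAcacttct
Dazl: gtatacacgAATAAAacctttttttcaaaa
Ybx2: gccaTTTTATgaactgtcatgtgccacctg
A match describes these letters in this window, and the absence of one says only that they are not in it.

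Gene counts summed to between 8409491 and 13793598 per library. The oocyte label held: all 10 oocyte markers were detected in every pool, summing to between 4836 and 43988 CPM. HFD replicates 1 and 2 and CD replicates 2 and 4 summed to 4836 to 6647 CPM, and the other 8 pools to 20926 CPM or more. Levels are given as CPM, each gene's count per unit of library size after TMM scaling. Poly(A) tail length was not measured, and its part in these levels was not tested. Cumulus and granulosa markers summed to 20.4 to 48.8 CPM in HFD pools and 37.0 to 85.9 CPM in CD pools, with 75.2% of the total from Cyp19a1, and 3 of the 19 (Amh, Ptx3 and Amhr2) were at 0 in every pool. Every count in HFD replicates 1, 2, 4 and 6 was even, while the other 8 libraries held odd counts. Whether reads were tallied more than once in the all-even libraries was not tested, and if they were, the read numbers and depths printed for those libraries are too high. HFD replicate 3 had the most genes detected, 14755 against 12229 to 13052 in the other 11 libraries, and it held 3942 CPM of the zona pellucida gene Zp3, against 11.0 to 195 CPM elsewhere. CD replicate 3 is also given separately where it decides a value. Between pairs of libraries of the same diet, chi-square over degrees of freedom ran from 25.1 to 328, much above sampling noise. Pairs across the diets were not compared in this way.

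The storage genes covered a wide range of message levels, and Zar1 and Dazl led in both diets. Zar1 stood at 508 ± 327 CPM per kilobase of transcript in HFD and 568 ± 378 in CD (SD, n = 6 each, as in all values below given with ±). Dazl stood at 409 ± 201 CPM per kilobase in HFD and 430.0 ± 128 in CD. Zar1 and Dazl lay at the 98.5th and 98.0th percentiles of the tested genes, and their order was not settled, since Zar1 was above Dazl in 4 of 6 HFD pools and 4 of 6 CD pools. Eif4enif1, Eif4e1b, Lsm14b and Cpeb1 formed a middle group, with means of 20.1 to 50.4 CPM per kilobase in HFD and 23.3 to 78.9 in CD, and neighbours in that order crossed in some pools. Ybx2, Pabpc1l and Ddx6 were lowest. Ddx6, the RNA helicase found in processing bodies of most cells, stood at 0.850 ± 0.395 CPM per kilobase in HFD and 1.44 ± 0.60 in CD, the 19.8th percentile. Zar1l was out of order between the diets, above Eif4enif1 in HFD at a mean of 162 and below Cpeb1 in CD at 15.0 CPM per kilobase, and 1 pool set the HFD mean. Its annotated transcript ends shortly after the coding sequence, and its level per kilobase is the least certain.

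**Figure D1:**
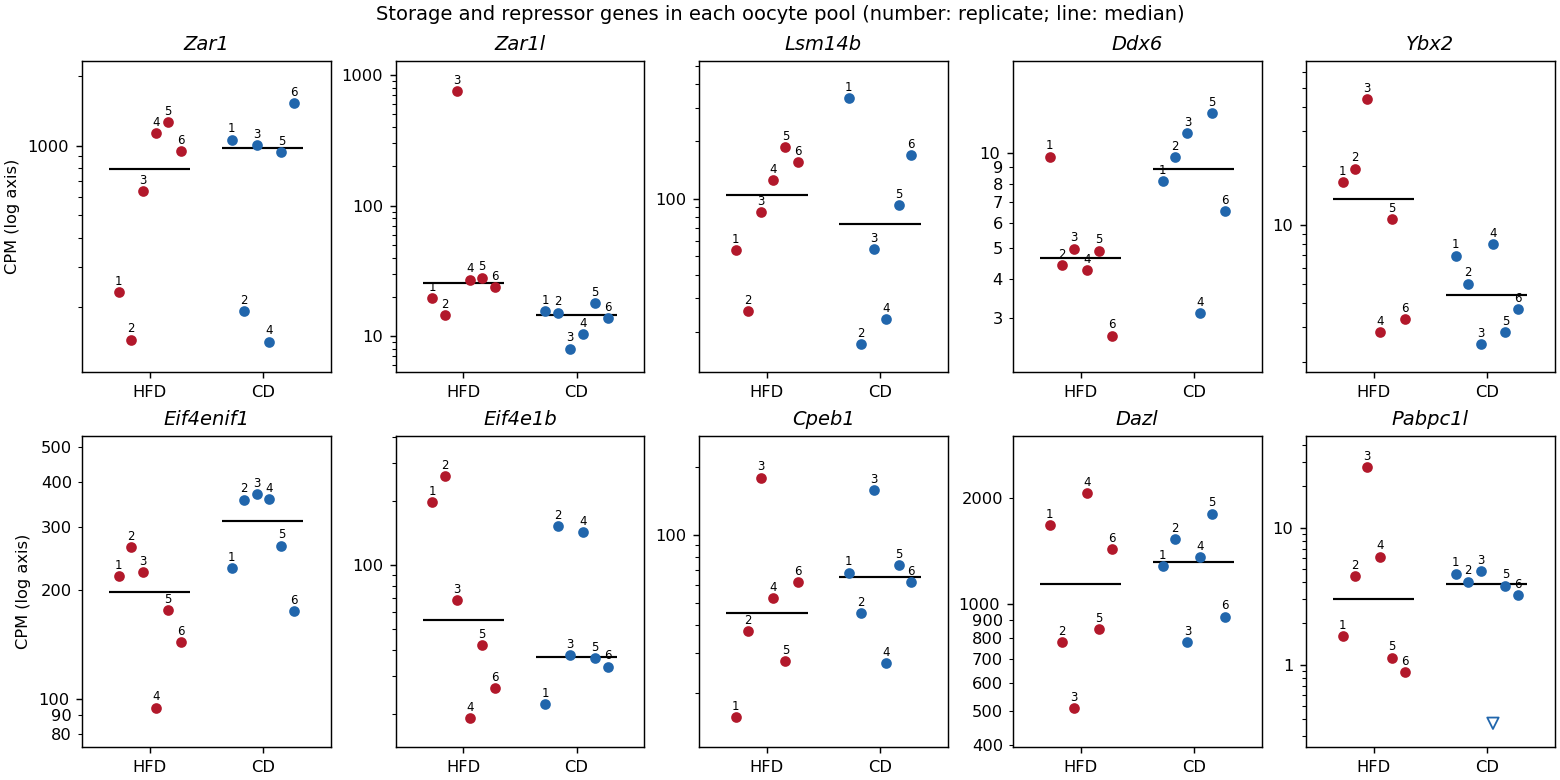
CPM on log axes for the 10 storage and repressor genes in each pool, HFD left of CD, with the replicate number above each point and a line at the median. Zar1l in HFD replicate 3 stands at 756 CPM, Zar1 is low in HFD replicates 1 and 2 and CD replicates 2 and 4, and the open triangle marks the 0.374 CPM limit for Pabpc1l in CD replicate 4, which had no count.

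Whether the measured level of these messages differed with the diet before mating was asked by setting HFD pools against CD pools, and no storage gene was called. With edgeR's quasi-likelihood test, 0 of 10 had an adjusted p under 0.05, as did 0% of the 9935 genes tested. At an unadjusted p under 0.05 there were 3 of the 10, 2 higher and 1 lower in HFD, beside 22.3% of all genes tested. DESeq2 called 1 of the 9 genes for which it gave an adjusted p, beside 9.48% of the genes it tested, and limma-voom called 0, beside 0.352%. The median log2 fold change (HFD minus CD) of the 10 was −0.10, with 4 above 0 and 6 below, against 0.04 over all genes tested. For each of the 10 the values of the 2 diets overlapped, as they did for all but 2.45% of the genes tested.

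Of the genes that act at the cap and the CPE, Eif4enif1 lay below the CD mean in every HFD pool. It encodes 4E-T, which binds the cap-binding protein eIF4E and keeps it from the translation machinery (chromosome 11, 3202392 to 3244588, mm10). Eif4enif1 ran from 94.6 CPM through a median of 198 to 264 CPM in HFD pools, against 175 through 312 to 370.2 CPM in CD pools. The upper HFD pools overlapped the lower CD pools. The diet difference, HFD minus CD on the log2 scale, was −0.65 ± 0.29 (SE; edgeR, adjusted p = 0.206), and it lay between −0.78 and −0.51 with any 1 library left out. Eif4enif1 was also among the most even of the 10 across pools, with a spread of log2 CPM at the 25.6th percentile of tested genes in HFD and the 19.9th in CD. No removal of a library brought its adjusted p to the threshold, and the lowest over all alternatives was 0.158.

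Eif4e1b, an oocyte form of the cap-binding protein (chromosome 13, 54783998 to 54788459), varied far more from pool to pool than between the diets. It ran from 19.15 CPM through 55.1 to 261 CPM in HFD pools, against 22.2 through 37.1 to 152 CPM in CD pools. HFD replicates 1 and 2 held 196 and 261 CPM and CD replicates 2 and 4 held 152 and 143 CPM, while the other 8 pools held between 19.15 and 68.3 CPM. Eif4e1b had a log2 difference of 0.53 ± 0.68 (edgeR, adjusted p = 0.683), and −0.0074 without HFD replicate 2. Its widespread relative Eif4e, which starts cap-dependent translation in all cells, had the same 4 pools as its highest, at 752 and 787 CPM in HFD replicates 1 and 2 and 747 and 891 CPM in CD replicates 2 and 4, and between 214 and 487 CPM in the others. Per kilobase, Eif4e stood at 99.6 CPM in HFD and 92.3 in CD, above Eif4e1b at 48.0 and 33.2.

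Cpeb1 (chromosome 7, 81347026 to 81455465) ran from 15.7 CPM through a median of 45.1 to 179 CPM in HFD, against 27.3 through 65.0 to 158 CPM in CD. The highest pool of each diet was its replicate 3, with 179 CPM for HFD and 158 CPM for CD, and the remaining pools lay at 15.7 to 62.0 CPM in HFD and 27.3 to 73.7 CPM in CD. On the log2 scale the difference was −0.21 ± 0.54 (edgeR, adjusted p = 0.850). It was −0.90 without HFD replicate 3 and 0.13 without CD replicate 3, so the direction for Cpeb1 hung on which of these libraries was kept. Its relatives Cpeb2, Cpeb3 and Cpeb4, which bind related elements, gave no call, and of these Cpeb4 had −0.62 ± 0.34 (edgeR, adjusted p = 0.291).

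**Figure D2:**
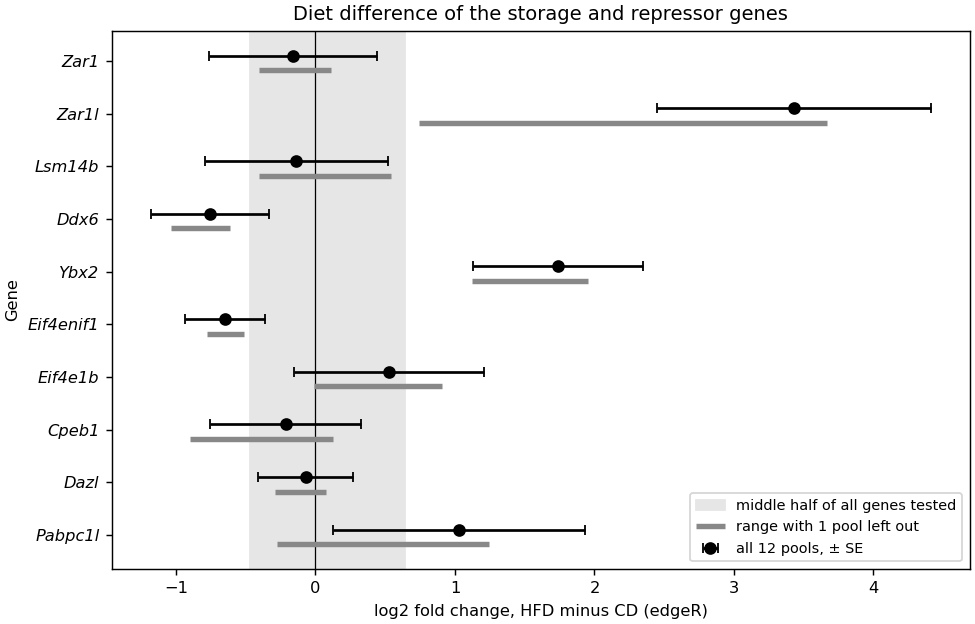
Log2 fold change, HFD minus CD, of each storage gene from edgeR with its SE (black), the range with any 1 of the 12 libraries left out (grey bar) and the interquartile range of all genes tested (band). Zar1l at 3.43 and Pabpc1l at 1.03 have wide grey bars that reach 0.74 and −0.27, while Eif4enif1 and Ddx6 stay below 0 and Ybx2 above 0 throughout.

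Among the packaging proteins, Ybx2 had the larger mean in HFD. It encodes the germ-cell Y-box protein MSY2, an abundant protein of mouse oocytes that coats and stabilises stored messages (chromosome 11, 69935796 to 69941605). Ybx2 ran from 2.84 CPM through 13.6 to 43.8 CPM in HFD, against 2.46 through 4.35 to 7.97 CPM in CD. HFD replicates 1, 2, 3 and 5 lay above every CD pool, at 16.5, 19.3, 43.8 and 10.6 CPM, while HFD replicates 4 and 6 lay within the CD range. Reads were few, 24 to 440 per HFD library and 26 to 77 per CD library. Its difference was 1.74 on the log2 scale, SE 0.61 (edgeR, adjusted p = 0.127), and 1.12 without HFD replicate 3 (adjusted p = 0.302). DESeq2 passed it narrowly (log2 fold change 1.73, adjusted p = 0.0445), as did edgeR on the 8 libraries with odd counts, where HFD is replicates 3 and 5 only (2.47, adjusted p = 0.0481). The smallest values came from limma-voom, 0.93 (adjusted p = 0.405), and from edgeR without both libraries numbered 3, 0.98 (adjusted p = 0.530). The all-even libraries are all HFD, so no diet comparison could be made within them. Ybx2 stood there at 16.5, 19.3, 2.84 and 3.31 CPM, in HFD replicates 1, 2, 4 and 6. The related Y-box genes were not alike in level: per kilobase, Ybx1 stood at 146 CPM in HFD and 140 in CD, against 9.61 and 2.88 for Ybx2. For Ybx1 the difference was 0.07 ± 0.32 (edgeR, adjusted p = 0.922). Whether the diet differences of Ybx1 and Ybx2 differ from each other was not tested.

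Transcript length moved with the diet difference across all genes. The 1895 shortest tested genes, up to 1772 bases, had a median log2 fold change of 0.83, and the 1895 longest, from 5190 bases, −0.24. Of 5 length classes, Ybx2, Zar1 and Zar1l belong to the shortest and Ddx6 to the longest. For Zar1l this class and the correction below rest on a transcript annotated with only 17 bases of 3′ region, so both are uncertain. After a length correction in every library the differences were 1.28 for Ybx2, 1.81 for Zar1l, −0.74 for Zar1, −0.49 for Eif4enif1 and −0.53 for Ddx6, none past the threshold (edgeR, adjusted p from 0.273 to 0.630).

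Ddx6 (chromosome 9, 44604892 to 44640731) was scarce in both diets. It had 24 to 120 reads per HFD library and 25 to 127 per CD library, or 2.65 CPM through 4.66 to 9.73 CPM in HFD, against 3.11 through 8.92 to 13.3 CPM in CD. In HFD only replicate 1 lay above the CD mean of 8.73 CPM. Ddx6 had a log2 difference of −0.76 ± 0.42 (edgeR, adjusted p = 0.303), which ran from −1.04 without HFD replicate 1 to −0.61 without CD replicate 5. Both HFD extremes, 24 and 120 reads, came from all-even libraries. With the all-even libraries halved the difference was again −0.76. Halving a whole library leaves its CPM as they were, so this cannot show whether a repeated tally matters. Intervals from such read numbers would cover counting error only, because reads carry no molecular identifiers.

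Lsm14b, whose product belongs to the RAP55 family that binds DDX6 and 4E-T (chromosome 2, 180024987 to 180035465), ran from 25.8 CPM through 105 to 187 CPM in HFD, against 17.2 through 73.5 to 337 CPM in CD. Its log2 fold change was −0.14 ± 0.66 (edgeR, adjusted p = 0.922), with 0.07 without HFD replicate 2 and 0.54 without CD replicate 1, the highest pool. In CD its spread between pools was at the 93.9th percentile of tested genes. Its relative Lsm14a was more even, at 213 to 564 CPM over HFD pools and 542 to 873 CPM over CD pools, and differed by a log2 value of −0.56 ± 0.26 (edgeR, adjusted p = 0.214).

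Zar1, a maternal-effect gene whose loss in mice arrests most embryos at the first cleavages (chromosome 5, 72576806 to 72581254), was among the most abundant of these messages and among the most uneven. It ran from 145 CPM through 793 to 1260.2 CPM in HFD, against 142 through 974 to 1526 CPM in CD. The pools fell into separate ranges in both diets. Zar1 stood at 232 and 145 CPM in HFD replicates 1 and 2 and at 192 and 142 CPM in CD replicates 2 and 4, and between 637 and 1526 CPM in the other 8 pools. Between the diets Zar1 had −0.16 ± 0.605 on the log2 scale (edgeR, adjusted p = 0.897), and 0.02, 0.05 and 0.11 without HFD replicate 1, HFD replicate 2 and CD replicate 6.

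The same 4 pools were the 4 lowest for Lsm14b and the 4 highest for Eif4e1b. Lsm14b held 53.7 and 25.8 CPM in HFD replicates 1 and 2 and 17.2 and 23.4 CPM in CD replicates 2 and 4, against 54.3 to 337 CPM in the other pools. Counted within each library, where no scaling enters, reads of Zar1 per read of Eif4e1b were 1.18 and 0.556 in HFD replicates 1 and 2 and 1.26 and 0.996 in CD replicates 2 and 4. In HFD replicates 3, 4, 5 and 6 the ratio was 9.34, 59.2, 30.05 and 35.85, and in CD replicates 1, 3, 5 and 6 it was 47.8, 26.8, 25.7 and 45.7. Of all genes tested, 6.97% had these 4 pools as their lowest, Zar1 and Lsm14b included, and 3.63% had them as their highest, Eif4e1b included. This order was chosen after the values were seen and no test was made of it. Mos, the kinase message that sustains metaphase arrest and a known CPEB target, was at 9.40 and 4.05 CPM in HFD replicates 1 and 2 and at 3.84 and 3.99 CPM in CD replicates 2 and 4, against 146 to 1702 CPM in the others. The oocyte growth factor message Gdf9 was at 543 to 616 CPM in these 4 pools, against 4601 to 9642 CPM in the others. Bmp15, its close relative, did not follow this order: it stood at 493 and 765 CPM in HFD replicates 1 and 2 and at 542 and 629 CPM in CD replicates 2 and 4, within the 241 to 1880.0 CPM of the others. The sum of the 10 oocyte markers moved with the order, as given above. Among them Gdf9, Zp3, Ooep and H1foo had these 4 pools as their lowest, and the rest did not. H1foo had the largest mean of the markers, 11486 CPM in HFD and 9119 CPM in CD. The part of the sum in the pattern was not tested. The pools of this kind were 2 of 6 in each diet.

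**Figure D3:**
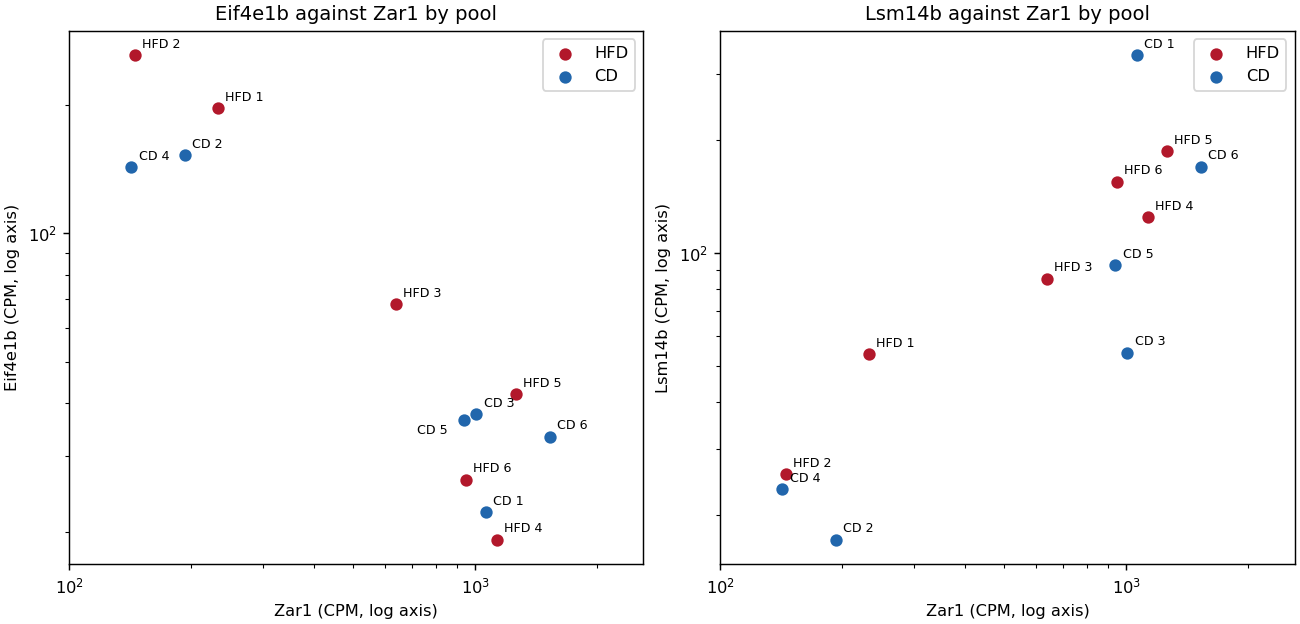
Eif4e1b (left) and Lsm14b (right) against Zar1 by pool, CPM on log axes, HFD in red and CD in blue. HFD 1, HFD 2, CD 2 and CD 4 lie at 142 to 232 CPM of Zar1 with Eif4e1b at 143 to 261 CPM, apart from the other 8 pools at 637 CPM of Zar1 or more.

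Dazl, Eif4enif1 and Zar1l did not share this order. Dazl stood at 1671 and 781 CPM in HFD replicates 1 and 2 and at 1531 and 1357 CPM in CD replicates 2 and 4, and Lsm14a at 557, 564, 637 and 755 CPM in those pools, within the range of the rest.

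Zar1l, a paralog of Zar1 (chromosome 5, 150507055 to 150518164), had the largest diet difference of the 10, and 1 pool carried most of it. HFD replicate 3 held 756 CPM, or 7588 reads, against 14.5 to 28.1 CPM in the other HFD pools and 8.03 to 17.9 CPM in CD pools. All 6 HFD pools lay above the CD mean of 13.5 CPM, although HFD replicate 2 fell within the CD range. That gave a log2 difference of 3.43 ± 0.98 (edgeR, adjusted p = 0.0957). Without HFD replicate 3 it was 0.74 (adjusted p = 0.242). On the libraries with odd counts, where HFD is replicates 3 and 5, it was 4.85 (edgeR, adjusted p = 0.0122). DESeq2 on all libraries gave 3.43, with neither a p nor an adjusted p. Within HFD replicate 3, Zar1 had 0.843 reads per read of Zar1l, against 9.99 to 44.8 in the other HFD libraries and 12.7 to 125 in CD libraries. In that library Zar1 itself stood at 637 CPM, inside the range of the other pools.

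HFD replicate 3 was also the highest of the 12 pools for Cpeb1, Ybx2 and Pabpc1l, and the lowest for Dazl. It stands apart beyond these genes, as its Zp3 level and number of detected genes show. Its cumulus and granulosa markers summed to 24.8 CPM and its oviduct markers to 2.39 CPM, the lowest oviduct sum of all pools. The part of such cells in its values was not tested further. Since each library pools 4 oocytes, a higher share of a message in all 4 and a much higher share in 1 cannot be told apart. CPM are shares of a library, so RNA per cell was not measured. The part of technical differences between libraries in these values was not tested.

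**Figure D4:**
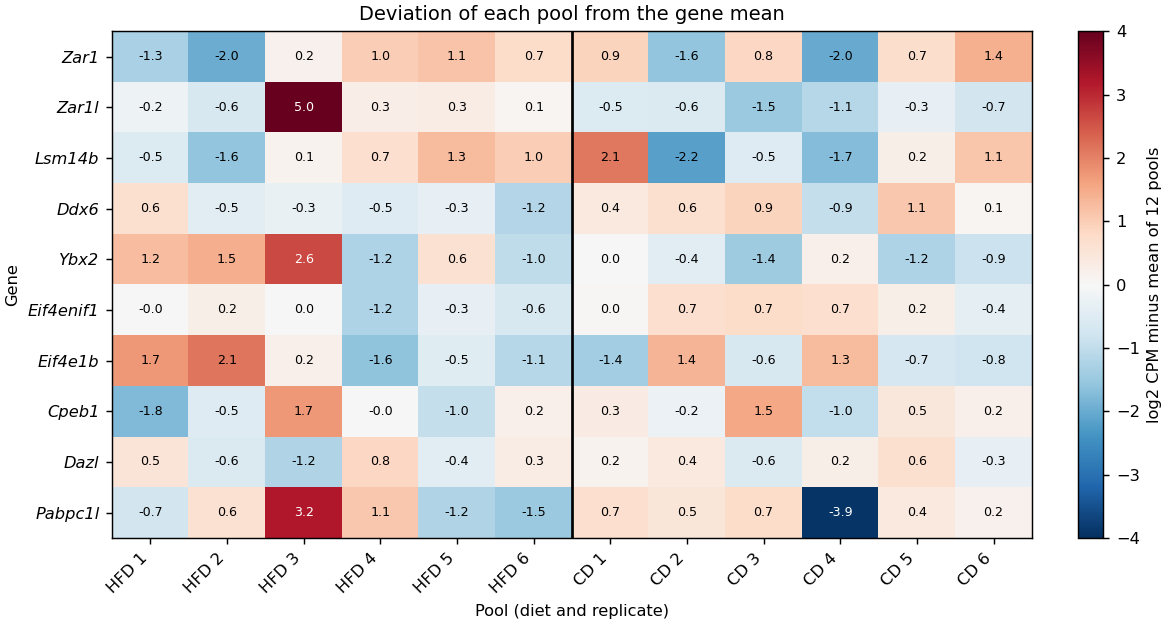
Log2 CPM of each storage gene minus its mean over the 12 pools, HFD left of the line and CD right of it, with values printed in the cells and the colour scale ending at 4 either way. HFD replicate 3 is high for Zar1l, Pabpc1l, Ybx2 and Cpeb1, and Zar1 and Lsm14b run against Eif4e1b in HFD 1, HFD 2, CD 2 and CD 4.

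Of the translational regulators, Dazl stood at one of the higher levels per kilobase, as given above. It encodes a germ-cell RNA-binding protein that recruits poly(A)-binding protein to its targets (chromosome 17, 50279395 to 50293636). It ran from 508 CPM through 1143 to 2064 CPM in HFD, against 779.8 through 1321 to 1803 CPM in CD. Dazl had a log2 difference of −0.07 ± 0.34 (edgeR, adjusted p = 0.922), and with any 1 library left out it ran from −0.29 to 0.08. On the libraries with odd counts it was −0.93 (adjusted p = 0.287). Its spread of log2 CPM was at the 51.6th percentile of tested genes in HFD and the 21.9th in CD. Of the HFD pools, 3 of 6 lay above the CD mean.

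Pabpc1l encodes ePAB, the poly(A)-binding protein of oocytes and early embryos (chromosome 2, 164025450 to 164050538), and its message was low. It ran from 0.883 CPM through 3.02 to 27.7 CPM in HFD, against 0 through 3.90 to 4.82 CPM in CD, where CD replicate 4 had no read, which allows up to 0.374 CPM (3 reads). HFD replicate 3 held the 27.7 CPM and the next HFD pool 6.15 CPM. Pabpc1l had a log2 difference of 1.03 ± 0.90 (edgeR, adjusted p = 0.535), and −0.27 without HFD replicate 3. Pabpc1, the poly(A)-binding protein of somatic cells, was as low, running from 0 to 11.7 CPM over HFD pools and from 0.249 to 7.41 CPM over CD pools. Pabpc1 has near-identical copies in the genome and reads aligned to several places were not counted for genes, so its level is uncertain. The nuclear-type poly(A)-binding protein of oocytes, Pabpn1l, was far higher, at 348 CPM per kilobase in HFD and 435 in CD.

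For each storage gene the tested gene with the most similar profile was found as the smallest root mean square difference of centred log2 CPM over the 12 libraries. For Zar1 it was H1foo, the oocyte linker histone, at 0.32 on the log2 scale, where Zar1 itself had an SD of 1.31. For Lsm14b it was Mrps5 (0.32), for Eif4e1b Vmn2r51 (0.33), for Eif4enif1 Cand1 (0.20) and for Dazl Bcl10 (0.23). For Zar1l it was Gtsf1 (0.40), for Ybx2 Rnaseh2c (0.42), for Cpeb1 Prss8 (0.37) and for Ddx6 Ash1l (0.34). For Pabpc1l it was Fam174b (0.85). The difference grows with a gene's own spread, whose SD over the 12 libraries was 1.73 for Pabpc1l and 0.73 for Ddx6. These libraries share depth and the pools that stand apart, so the likeness is a description.

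The partners and targets of the storage proteins did not pass the threshold either, in any of 4 lists. Over all 9935 genes tested the share past it was also 0%, so these counts do not set the lists apart. The list medians below are not corrected for transcript length. Over all genes the median log2 fold change ran from 0.83 in the shortest length class to −0.24 in the longest. The part of length in the lists was not tested. Of 16 tested genes of the cytoplasmic polyadenylation machinery and of CPEB and Pumilio partners (19 listed), 0 passed, 7 were above 0 and 9 below, and the median log2 fold change was −0.16, against 0.04 over all genes tested. At an unadjusted p under 0.05 there were also 0, beside 22.3% of all genes tested. The smallest p belonged to Cpeb4, then Cpsf2, a subunit of the cleavage and polyadenylation factor, at −0.54 ± 0.34, and Pum2, a Pumilio repressor, at −0.48 ± 0.31 (edgeR, adjusted p = 0.359 and 0.367).

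Other proteins of stored particles and cap-binding proteins had 0 of 31 tested genes past the threshold (34 listed), with 1 higher and 5 lower at an unadjusted p under 0.05, beside 13.4% higher and 8.89% lower among all genes tested. Their median was −0.31, against 0.04 over all genes. Ythdf3, a reader of m6A-marked RNA, averaged 171 ± 67.0 CPM over HFD pools and 369.6 ± 117 CPM over CD pools, a difference of −1.12 ± 0.32 (edgeR, adjusted p = 0.0957). G3bp1, a stress-granule protein, had −1.21 ± 0.42 (edgeR, adjusted p = 0.122). Fxr2, of the fragile X family, had 2.402 ± 0.88 (edgeR, adjusted p = 0.139) at low levels of 0 to 15.3 CPM over HFD pools and 0.384 to 1.62 CPM over CD pools.

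Of 9 tested genes for other poly(A)-binding proteins and their partners (12 listed), 0 passed and 1 was higher and 1 lower at an unadjusted p under 0.05, beside 13.4% higher and 8.89% lower among all genes tested. Their median was 0.34, against 0.04 over all genes. Paip2, which displaces poly(A)-binding protein from the tail, had a log2 difference of 3.37 ± 0.93 (edgeR, adjusted p = 0.0946). It ran from 19.9 to 949 CPM over HFD pools and from 7.96 to 39.2 CPM over CD pools. Over HFD pools its SD, 366 CPM, was larger than its mean, 209 CPM. Larp4, which protects poly(A) tails, had −0.96 ± 0.33 and Pabpc4 −0.57 ± 0.28 (edgeR, adjusted p = 0.121 and 0.251).

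Among 16 messages known to be stored and then translated during maturation, all tested, 0 passed, with 0 higher and 3 lower at an unadjusted p under 0.05, beside the same 13.4% and 8.89% of all genes tested. Their median was −0.28, against 0.04 over all genes. Tex19.1, a germline gene and DAZL target, averaged 71.0 ± 27.0 CPM over HFD pools and 193 ± 85.4 CPM over CD pools, a difference of −1.45 ± 0.36 (edgeR, adjusted p = 0.0912). Its highest HFD pool, at 95.2 CPM, was below its lowest CD pool, at 98.2 CPM. The diets did not overlap for 2.45% of all genes tested, and Tex19.1 was named for the smallest p of its list. Wee2, the oocyte kinase that restrains Cdk1, had −0.85 ± 0.27 and the decapping cofactor Dcp1a −1.17 ± 0.47 (edgeR, adjusted p = 0.107 and 0.169). Dcp1a was uneven in CD, with a mean of 830 CPM and an SD of 862 CPM. It ran from 363 to 2578 CPM over CD pools, against 241 to 560 CPM over HFD pools.

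**Figure D5:**
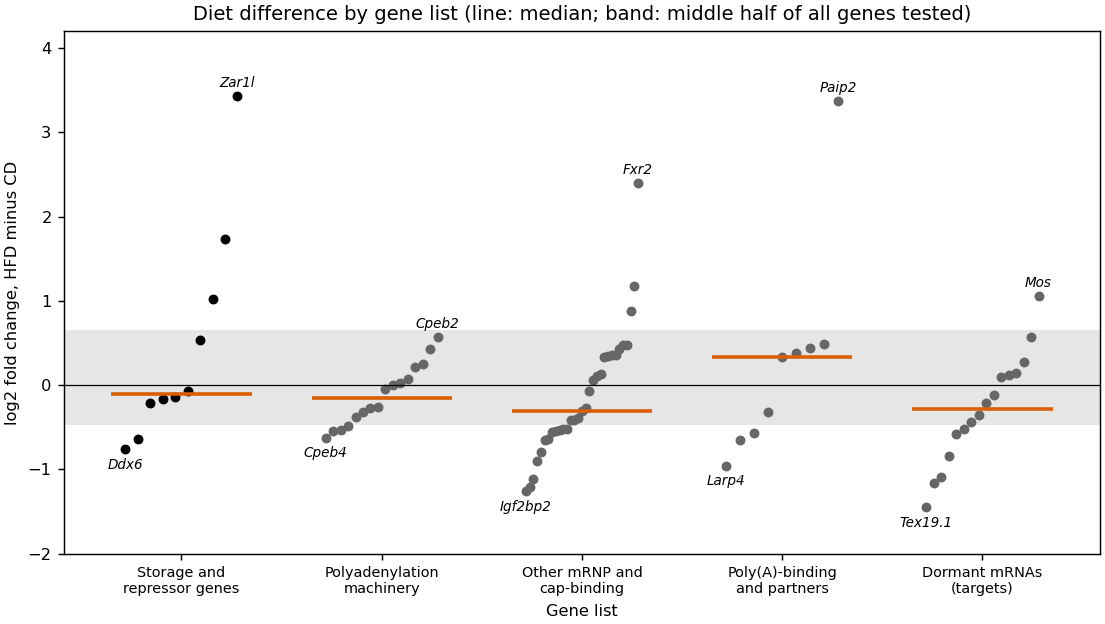
Log2 fold change, HFD minus CD, of the 10 storage genes and of the tested genes of 4 lists, with each list's median as a line and the interquartile range of all genes tested as a band. The list medians lie between −0.31 and 0.34, and the extremes Zar1l and Paip2 reach 3.43 and 3.37.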

How the data were processed

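The deposited table held raw read counts per gene symbol for 12 libraries, with 5 lines of unassigned reads that were kept out of library sizes and made up 62.3% to 72.9% of all tallied reads. Per the submitters' processing notes, STAR, HTSeq 1.0.0, DESeq2 1.0.19 and mm10 were named. No gene annotation or strand setting is given in the sources used for this text. Per the labels' protocols, cDNA was made with SMART-Seq v4 and Nextera XT, which do not mark strand. No other annotated exon overlapped those of the 10 genes.

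Counts were tested with edgeR 4.0.16 (R 4.3.3): default filter, TMM, robust quasi-likelihood F-test with diet as the only term, and Benjamini-Hochberg adjustment over all 9935 tested genes at 0.05. The SE is the size of the fold change over the root of F. Log2 levels used a prior count of 2. Levels per kilobase used the longest basic protein-coding transcript in GENCODE M21, and 95.3% of tested genes had a length. Alternatives used DESeq2 1.42.0, limma 3.58.1 (voom), other scaling and filters, halved all-even libraries, a length correction, a replicate block and left-out libraries. The edgeR script was tested on simulated data. The genes and lists were chosen with earlier results of these data known. Named genes were all 10, the 3 smallest p of each list where none passed, relatives, the nearest profile of each, and Gdf9, Bmp15 and Zp3. Others (such as Pabpn1l and Mos) were named after values were seen.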

Additional observations from a re-analysis of the deposited data

Results flagged for a closer look

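In 6 of 20 sets of 6 pools (10 genes in 2 diets), 1 pool lay far from the rest by Dixon's criterion on CPM, where chance flags about 1 in 20 if values are normal. CPM are skewed, and on the log2 scale, added after seeing the data, 2 of the 20 passed, both among the 6: Zar1l in HFD and Pabpc1l in CD. Of these, 3 concern HFD replicate 3: Zar1l at 756 CPM with the next HFD pool at 28.1, Cpeb1 at 179 CPM with the next at 62.0, and Pabpc1l at 27.7 CPM with the next at 6.15. Ddx6 stood at 9.73 CPM in HFD replicate 1, with the next HFD pool at 4.98 CPM. Cpeb1 stood at 158 CPM in CD replicate 3, with the next CD pool at 73.7 CPM. Pabpc1l had 0 CPM in CD replicate 4, with the next CD pool at 3.23 CPM.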

How the results depend on the processing

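Across 21 alternatives, Eif4enif1, Ddx6, Ybx2 and Zar1l kept their sign in each. DESeq2 called 769 genes (1 storage gene, Ybx2), the odd-count libraries alone 397 (2, Ybx2 and Zar1l) and limma-voom 35 (0), while edgeR called 0 in all other alternatives. Signs turned on the odd-count libraries for Cpeb1 (0.50), Eif4e1b (−0.39), Lsm14b (0.23) and Zar1 (0.22), with limma-voom for Lsm14b (0.28) and Pabpc1l (−0.16), with the length trend removed for Dazl (0.043), and without both libraries numbered 3 for Pabpc1l (−0.16). Leaving out 1 library, the ranges that crossed 0 were −0.90 to 0.13 for Cpeb1, −0.0074 to 0.91 for Eif4e1b, −0.40 to 0.54 for Lsm14b, −0.29 to 0.077 for Dazl, −0.40 to 0.11 for Zar1 and −0.27 to 1.24 for Pabpc1l. The cause was not tested. Total counts in place of TMM moved the median of all genes to −0.06, from 0.04, and turned no sign among the 10. The replicate numbers gave no clear pairing: same-numbered pools correlated at −0.45 to 0.55 and 2 of 6 HFD pools best with their own number. HFD replicates 1, 2 and 3 all correlated best with CD replicate 2, so the check cannot decide whether the numbers mark pairs. With the replicate block 0 genes passed, and Lsm14b was 0.40 and Ybx2 1.28 (adjusted p = 0.447). Read depth limits Ddx6, Pabpc1l and Ybx2.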
